A study of Rattus norvegicus with 12 samples.

Results

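Rest was knocked down in quiescent HCN cells, and the transcripts of these cells were compared with those of quiescent cells given an empty vector. HCN cells are a neural stem cell line from the hippocampus of the adult rat. Medium with FGF2 and BMP4 holds them in an induced quiescent state (iQNP), and FGF2 alone keeps them proliferating (TAP). The compared groups were iQNP cells electroporated with a vector for a short hairpin RNA against Rest (4 libraries) and iQNP cells electroporated with the empty vector (2 libraries). Both groups share the cell line, the medium and the electroporation, and the line is a cell culture model with no tissue around it. All genes that the deposited iQNP table marks with the status OK were taken, which gave 9662 genes of the 16468 listed. TAP cells given the same vectors (4 knockdown and 2 control libraries, 9430 genes with status OK) were used only to show where iQNP cells differ.

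REST is a zinc finger repressor that binds a DNA element called RE1 (also NRSE) and brings in the CoREST and Sin3 complexes, which remove acetyl and methyl marks from histones. It is best known for holding neuronal genes silent in stem cells and in cells outside the nervous system. Many of the genes beside RE1 elements code for parts of the neuron's secretory and electrical apparatus, such as granins, vesicle proteins, channels and receptors. In neural stem cells its level falls as neurons form, and in the adult hippocampus the question is which genes it holds down while the cell rests.

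Each value below is a single FPKM figure (fragments corrected for transcript length and for library size) for a gene in a group, which Cuffdiff made from all libraries of the group. There is no value per library, so no replicate error, no interval and no test can stand beside any difference, and the depth behind each value is unknown. The log2 ratio is that of knockdown FPKM plus 1 over control FPKM plus 1, a scale that understates the difference of genes with few fragments. A gene is called at least 2-fold higher or lower where this ratio is at least 1 or at most -1.

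Rest itself stood at 13.9 FPKM in the knockdown cells and 48.7 FPKM in the control cells, 71.5% lower (log2 ratio -1.74). Its locus is on chromosome 14 of rn4, at 33136045 to 33151142. In TAP cells Rest was at 9.002 FPKM in knockdown and 27.8 FPKM in control (log2 ratio -1.53). Where both iQNP groups reached 3 FPKM and the gene has a name, 3 genes had a lower ratio than Rest, namely fut10, Hist1h2af and Ly96. The 8 fixed markers of neural stem cells (Nes, Sox2, Vim, Fabp7, Hes1, Slc1a3, Gfap and Id3) were all at 1 FPKM or more in both groups, with sums of 5177 FPKM in knockdown and 4409.7 in control. Of these sums Id3 made up 1075 FPKM in knockdown and 220.4 in control.

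The promoters shown next are those in which both blocks of the RE1 element were found, because the element is what ties a promoter to REST. The blocks searched were CAGCACC and GGACAG with 2 bases between them, on both strands, so that on the opposite strand they read CTGTCC and GGTGCTG. The windows come from RefSeq (build GRCr8) and run from 250 bases before each gene's start to 50 bases after it. Of the 9662 genes, 6748 (69.8%) were matched to a window. A match of both blocks without a mismatch was held by 4 of these 6748 genes (0.0593%), against 10 of all 33469 windows (0.0299%). With at most 1 mismatch over both blocks, the numbers were 19 genes (0.282%) and 75 windows (0.224%). Among 46 matched members of the list of textbook REST targets, 3 (6.52%) had a match with 1 mismatch: Vgf, Celsr3 and Omg. The windows of the 4 genes without a mismatch and of those 3 list members are printed 5′ to 3′ along the gene, with both blocks, mismatched bases included, in capitals.
Ttc9b, chr1:92080776-92081075, plus strand: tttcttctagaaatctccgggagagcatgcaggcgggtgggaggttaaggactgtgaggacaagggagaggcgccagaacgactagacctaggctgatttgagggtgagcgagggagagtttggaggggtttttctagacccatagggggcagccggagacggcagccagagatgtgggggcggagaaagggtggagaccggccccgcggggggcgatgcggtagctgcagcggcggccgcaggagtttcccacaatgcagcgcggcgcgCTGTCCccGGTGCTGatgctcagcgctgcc
Ogdhl, chr16:7584416-7584715, plus strand: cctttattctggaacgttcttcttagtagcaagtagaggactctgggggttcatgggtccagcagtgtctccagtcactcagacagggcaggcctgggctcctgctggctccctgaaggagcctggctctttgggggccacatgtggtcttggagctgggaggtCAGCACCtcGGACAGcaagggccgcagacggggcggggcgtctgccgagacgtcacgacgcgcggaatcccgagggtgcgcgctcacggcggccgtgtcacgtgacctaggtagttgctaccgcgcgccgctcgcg
Hrh3, chr3:187574210-187574509, minus strand: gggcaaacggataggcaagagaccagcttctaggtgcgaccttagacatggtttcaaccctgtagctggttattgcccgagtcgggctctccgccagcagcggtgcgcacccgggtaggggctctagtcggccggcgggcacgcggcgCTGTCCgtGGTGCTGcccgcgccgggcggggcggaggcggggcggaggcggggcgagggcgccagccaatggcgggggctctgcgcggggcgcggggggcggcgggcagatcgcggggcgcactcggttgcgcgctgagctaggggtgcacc
Fbll1, chr10:20764310-20764609, minus strand: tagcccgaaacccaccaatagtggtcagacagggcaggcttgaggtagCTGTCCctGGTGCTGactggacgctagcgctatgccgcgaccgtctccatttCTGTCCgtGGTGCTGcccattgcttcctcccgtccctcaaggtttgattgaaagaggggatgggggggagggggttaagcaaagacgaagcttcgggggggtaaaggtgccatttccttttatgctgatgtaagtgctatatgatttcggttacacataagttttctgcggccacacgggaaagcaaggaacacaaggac
Vgf, chr12:25276971-25277270, minus strand: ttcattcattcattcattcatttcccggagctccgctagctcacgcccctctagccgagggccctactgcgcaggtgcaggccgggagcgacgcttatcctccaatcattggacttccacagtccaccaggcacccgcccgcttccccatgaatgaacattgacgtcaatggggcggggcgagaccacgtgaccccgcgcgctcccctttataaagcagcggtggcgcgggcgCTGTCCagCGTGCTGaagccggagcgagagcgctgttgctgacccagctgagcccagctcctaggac
Celsr3, chr8:118408886-118409185, plus strand: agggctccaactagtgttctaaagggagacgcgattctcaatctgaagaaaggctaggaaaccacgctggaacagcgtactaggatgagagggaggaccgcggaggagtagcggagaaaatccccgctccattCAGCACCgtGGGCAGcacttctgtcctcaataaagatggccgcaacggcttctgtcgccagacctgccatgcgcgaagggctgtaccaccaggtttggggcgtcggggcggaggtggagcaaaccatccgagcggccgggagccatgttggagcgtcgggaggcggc
Omg, chr10:64962001-64962300, minus strand: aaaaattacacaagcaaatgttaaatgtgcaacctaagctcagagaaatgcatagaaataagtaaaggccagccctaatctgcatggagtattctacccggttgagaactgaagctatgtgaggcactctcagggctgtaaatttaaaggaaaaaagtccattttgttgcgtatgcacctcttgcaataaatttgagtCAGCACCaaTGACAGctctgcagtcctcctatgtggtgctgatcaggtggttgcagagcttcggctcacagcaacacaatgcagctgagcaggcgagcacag

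Counted from the gene's start, the match began at position 20 in Ttc9b, -86 in Ogdhl and -102 in Hrh3. Fbll1 held a pair of matches, at positions -202 and -150. All 4 genes were higher in the knockdown cells. Hrh3 is among the targets that the study called partly by their rise in these libraries, so its direction is no independent evidence. Ttc9b, a gene of the tetratricopeptide repeat family, had 11.7 FPKM in knockdown and 2.71 in control (log2 ratio 1.78). Ogdhl, which resembles a subunit of the mitochondrial oxoglutarate dehydrogenase, had 12.5 FPKM in knockdown and 5.95 in control (0.96). Hrh3, a histamine receptor of neurons, had 1.54 FPKM in knockdown and 0.331 in control (0.93), and Fbll1, a relative of the nucleolar protein fibrillarin, had 0.947 FPKM in knockdown and 0.109 in control (0.81). Only Ttc9b of these 4 had a log2 ratio of at least 1. Without the 1 FPKM added to each value, Ogdhl, Hrh3 and Fbll1 were also more than 2-fold higher.

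Of the 3 list members with 1 mismatch, Vgf and Celsr3 were higher and Omg was lower in the knockdown cells. Vgf, a precursor of secreted neuropeptides, had 57.7 FPKM in knockdown and 0.908 in control (log2 ratio 4.94), with its match at position -17. Celsr3, a cadherin receptor of growing axons, had 9.39 FPKM in knockdown and 1.86 in control (1.86), with its match at position -117. Omg, a membrane protein of myelin and neurons, had 29.9 FPKM in knockdown and 46.0 in control (-0.60), with its match at position -52, and the file gives it 1 locus of 234 kb together with other genes (3 in all). The median log2 ratio was 0.95 over the 4 genes without a mismatch, 0.00 over the 15 with 1 mismatch, 0.06 over the 115 with 2 and 0.00 over the 6614 with more. With at most 2 mismatches the element was in 1.64% of the matched genes at least 2-fold higher, 0.893% of those at least 2-fold lower and 1.99% of all matched genes. With at most 1 mismatch it was in 5 of 973 such higher genes (0.514%), 0 of 224 lower ones and 19 of all 6748 (0.282%). These are matches of letters in a short window, and sites farther from the start were not searched.

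Over all 9662 genes, 1386 (14.3%) were at least 2-fold higher and 297 (3.07%) at least 2-fold lower in the knockdown cells, and 7979 (82.6%) lay within 2-fold. The middle of the distribution did not lean either way: the median log2 ratio was 0.01, with quartiles of -0.46 and 0.59. The higher side had the longer tail, with 392 genes at least 4-fold higher and 4 at least 4-fold lower, and 95 at least 16-fold higher against 0 lower. Of the 9662 genes, 36 were listed at 0 in control only and 3 in knockdown only (Psbpc2, Stfa3 and S100a7a). Of the genes past 2-fold, 82.4% were higher as deposited. Over all 9662 genes the FPKM values sum to 1056960 in knockdown and 733855 in control. Scaling both groups to the same sum shifts the log2 ratio of FPKM by -0.53 and leaves 27.3% of calls higher, with 7.80% of genes higher and 20.7% lower. With cytosolic ribosomal protein genes left out of the sums the shift is -0.19 and 60.2% of calls are higher. Directions below are those of the values as deposited, and are named where a scaling turns them. Counts of list members as deposited are to be read against the 14.3% of all genes higher and 3.07% lower. With the same sum the shares of all genes are 7.80% and 20.7%. With ratios centred on the median of genes of like locus length they are 11.6% and 3.54%. Over the 8335 genes without a pseudogene named after them in RefSeq, 12.2% were higher and 3.28% lower as deposited.

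**Figure D1:**
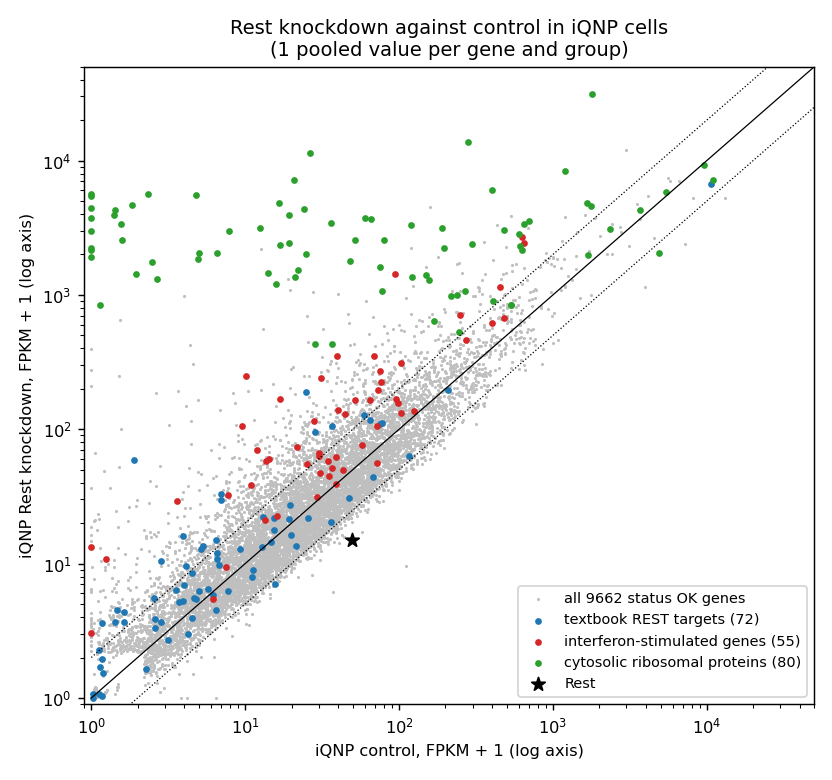
FPKM plus 1 in iQNP Rest knockdown cells (vertical, log axis) against iQNP control cells (horizontal, log axis), 1 point per gene for 9662 genes, with the line of equality and dotted lines at 2-fold. Cytosolic ribosomal protein genes (green) form the band high above the diagonal, most interferon-stimulated genes (red) and 20 of 72 textbook REST targets (blue) lie above the upper dotted line, and Rest (star, 13.9 against 48.7 FPKM) lies below the lower one.

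Genes of REST's own complexes mostly lay within 2-fold, as did 82.6% of all genes. Of 20 such genes, 3 (15%) were at least 2-fold higher, near the 14.3% of all genes. Only Rest (5%) was at least 2-fold lower, against 3.07%, and the median log2 ratio was -0.45. Rcor2, a CoREST family member of neural progenitors, had 5.13 FPKM in knockdown and 0.449 in control (2.08). Hdac1, a histone deacetylase of these complexes, had 77.1 FPKM in knockdown and 35.3 in control (1.10), and Ctdsp1, a small phosphatase that acts with REST, had 80.2 FPKM in knockdown and 38.0 in control (1.06). The scaffold genes Rcor1 (knockdown 7.30 FPKM, control 9.25 FPKM), Sin3a (knockdown 17.7 FPKM, control 25.8 FPKM) and Kdm1a, the histone demethylase LSD1 (knockdown 35.1 FPKM, control 38.6 FPKM), stayed within 2-fold. Hdac2 had 99.5 FPKM in knockdown and 134 in control.

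Among textbook REST targets, a larger share than among all genes was past 2-fold above control. Status OK was given to 72 of the 99 listed in the file, and 20 of these (27.8%) were at least 2-fold higher against 14.3% of all genes, while 1 (1.39%) was at least 2-fold lower against 3.07%. Their median log2 ratio was 0.48, and 49 of the 72 lay above 0. Several of the higher members, such as Stmn3, Snap25, Celsr3, Cplx1 and Grin1, are also targets that the study called partly by their rise in these libraries. For such members the direction is no independent evidence. With both groups scaled to the same sum the median was 0.02, with 11 members higher and 7 lower. Under that scaling 7.80% of all genes were higher and 20.7% lower. With each ratio centred on genes of like locus length the median was 0.36, with 21 members higher and 3 lower. When so centred, 11.6% of all genes were higher and 3.54% lower. None of the 72 has a named pseudogene.

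Granins and secreted peptides were among them. Beside Vgf, Scg2, a granin of dense core vesicles, had 32.2 FPKM in knockdown and 6.002 in control (log2 ratio 2.24). Chga, another granin, had 3.50 FPKM in knockdown and 0.475 in control (1.61), Chgb had 13.9 FPKM in knockdown and 5.45 in control (1.21), and Scg5, a chaperone of prohormone convertase, had 4.58 FPKM in knockdown and 1.54 in control (1.13). Sst, which encodes the neuropeptide somatostatin, had 108 FPKM in knockdown and 47.7 in control (1.16). The most abundant peptide gene went the other way within 2-fold: Npy, which encodes neuropeptide Y, had 6681 FPKM in knockdown and 10699 in control (-0.68). Cpe, carboxypeptidase E of the granule, had 10.5 FPKM in knockdown and 22.6 in control (-1.04), over an entry of 0.397 kb in the file. In all, 6 of 17 neuropeptide and granin genes were at least 2-fold higher and 1 lower, with a median of 0.69.

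In the vesicle fusion machinery, single members differed and the median lay near 0. Of 42 synaptic vesicle and exocytosis genes, 8 were at least 2-fold higher and 1 lower, with a median log2 ratio of -0.02 that was 0.15 when centred on locus length. Snap25, a SNARE of the plasma membrane, had 28.9 FPKM in knockdown and 5.99 in control (2.10). Its partner Stx1a had 8.57 FPKM in knockdown and 3.12 in control (1.22), and Vamp2, the SNARE of the vesicle, had 111 FPKM in knockdown and 54.4 in control (1.02). Scamp5, a vesicle carrier protein, had 15.3 FPKM in knockdown and 4.48 in control (1.57), and its promoter held the RE1 blocks with 1 mismatch. Syt1, the calcium sensor of release, had 58.3 FPKM in knockdown and 146 in control (-1.31). Cplx1, which clamps SNARE complexes, and Bsn, a scaffold of the active zone, stayed under 3 FPKM in both groups (2.65 and 2.71 FPKM in knockdown, 0.419 and 0.637 FPKM in control).

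Channel and receptor genes were mostly low and within 2-fold. Among 26 sodium, calcium and HCN channel genes, 2 were at least 2-fold higher, among them the pacemaker channel Hcn2 (knockdown 11.7 FPKM, control 4.19 FPKM, log2 ratio 1.30). Cacna2d1, an auxiliary calcium channel subunit, was lower at 14.5 FPKM in knockdown and 38.6 in control (-1.36). Their median was -0.16 as deposited and 0.29 when centred on locus length, and their median locus spans 104 kb. Of 25 potassium channel genes, 2 were higher and 1 lower, Kcnmb4 (knockdown 18.1 FPKM, control 6.86 FPKM, 1.28) and Kcna1 (knockdown 4.27 FPKM, control 11.3 FPKM, -1.23) among them, with a median of 0.19 that turned to -0.15 with the same sum. Of 25 neurotransmitter receptor genes with status OK, out of 78 in the table, 3 were at least 2-fold higher. These were Chrna1 (knockdown 3.87 FPKM, control 0.334 FPKM, 1.87), Chrnb2 (knockdown 3.40 FPKM, control 0.620 FPKM, 1.44), which are subunits of nicotinic acetylcholine receptors, and Grin1 (knockdown 1.28 FPKM, control 0.128 FPKM, 1.01), the obligate NMDA receptor subunit. Gria2, an AMPA receptor subunit, had 62.0 FPKM in knockdown and 115 in control (-0.88).

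Cytoskeletal genes of neurons split by member. Stmn3, a microtubule regulator, had 187 FPKM in knockdown and 23.8 in control (log2 ratio 2.92). The tubulins Tubb3 (knockdown 126 FPKM, control 58.4 FPKM, 1.10) and Tubb2a (knockdown 212 FPKM, control 104 FPKM, 1.02) were also past 2-fold. In contrast, the microtubule binding proteins Map1b (knockdown 92.3 FPKM, control 214 FPKM, -1.20) and Map2 (knockdown 47.9 FPKM, control 111 FPKM, -1.19), the kinesin Kif5c (knockdown 40.2 FPKM, control 99.3 FPKM, -1.28) and the neurofilament gene Nefm (knockdown 6.10 FPKM, control 14.5 FPKM, -1.13) were at least 2-fold lower. Over the whole list of 46 there were 4 higher and 5 lower, with a median of -0.22. The 4 higher genes lie in loci shorter than the list's median of 31.7 kb.

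Adhesion, guidance and transcription factor genes of neurons were not higher as groups. Of 31 cell adhesion and synapse organisation genes, 3 were at least 2-fold higher and 0 lower, with a median log2 ratio of -0.53 (-0.12 when centred on locus length). Besides Celsr3, the higher ones were Nlgn2, an adhesion protein of inhibitory synapses (knockdown 23.2 FPKM, control 8.87 FPKM, 1.29), and Lrfn1 (knockdown 2.35 FPKM, control 0.598 FPKM, 1.07). Of 41 axon guidance genes, 1 was higher and 4 lower, led by the receptor Robo1 (knockdown 27.6 FPKM, control 73.0 FPKM, -1.37) and the ligand Sema3d (knockdown 17.0 FPKM, control 38.8 FPKM, -1.15). Of 21 neuronal transcription factor genes, 1 was higher, Scrt1 (knockdown 5.24 FPKM, control 1.29 FPKM, 1.44), and 1 lower, Zeb1 (knockdown 17.2 FPKM, control 37.3 FPKM, -1.07), which also acts outside neurons. Prox1, a factor of granule neurons (knockdown 6.09 FPKM, control 12.9 FPKM, -0.97), lay just within 2-fold, and Neurod4 stayed under 1 FPKM in both groups. The median of these factors was -0.39, and -0.69 when centred on locus length.

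**Figure D2:**
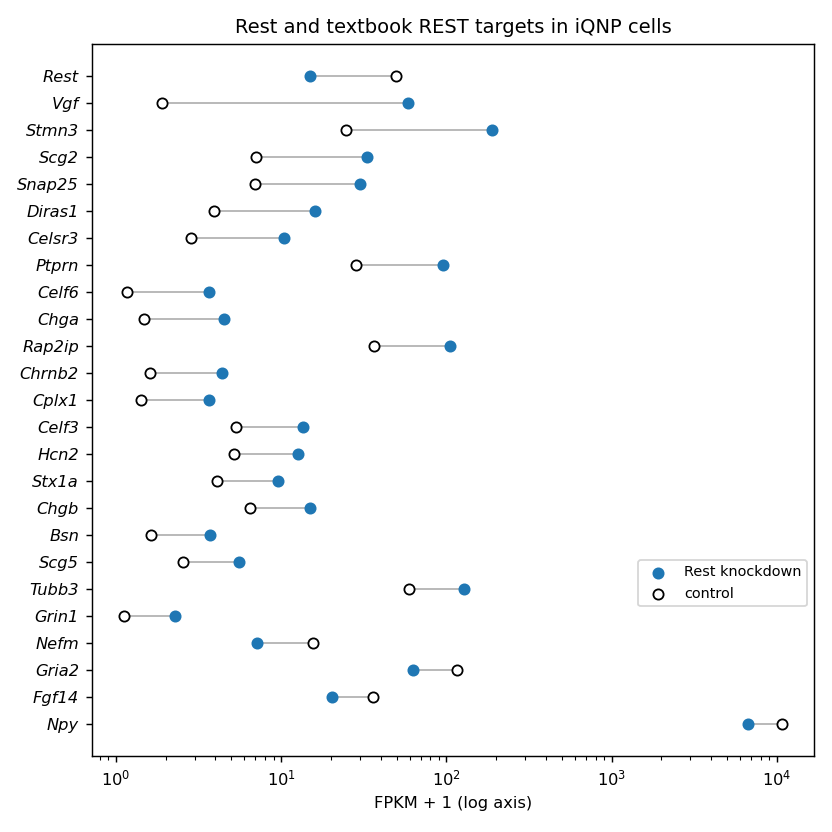
FPKM plus 1 (log axis) of Rest and of 24 textbook REST targets in iQNP Rest knockdown cells (filled) and iQNP control cells (open), joined by a line for each gene. Rest lies at 13.9 against 48.7 FPKM, 20 targets at least 2-fold higher run from Vgf (57.7 against 0.908 FPKM) to Grin1 (1.28 against 0.128 FPKM), and the 4 targets with the lowest ratios (Nefm, Gria2, Fgf14 and Npy) lie to the left of control.

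Stem cell and radial glia genes were lower more often than all genes. Of 34 with status OK, 6 (17.6%) were at least 2-fold lower against 3.07% of all, and 2 (5.88%) at least 2-fold higher against 14.3%, with a median log2 ratio of -0.42 (-0.47 when centred on locus length). The lower genes were the transcription factors Gli3 (knockdown 11.4 FPKM, control 30.2 FPKM, -1.33), Nfib (knockdown 81.8 FPKM, control 191 FPKM, -1.22), Zbtb20 (knockdown 20.8 FPKM, control 48.0 FPKM, -1.17), Sox6 (knockdown 73.7 FPKM, control 164 FPKM, -1.15) and Nfia (knockdown 93.3 FPKM, control 191 FPKM, -1.03), and the lysophosphatidic acid receptor Lpar1 (knockdown 13.5 FPKM, control 31.5 FPKM, -1.17). With ratios centred on locus length, 3 of the list were lower and 1 higher. Of the fixed stem cell markers, Sox2 (knockdown 172 FPKM, control 185 FPKM), Vim (knockdown 3648 FPKM, control 3671 FPKM) and Fabp7 (knockdown 127 FPKM, control 130.4 FPKM) were close to equal. So were Slc1a3 (log2 ratio -0.01) and Gfap (0.15). Hes1 had 24.3 FPKM in knockdown and 12.2 in control (0.94), and Id3 was past 2-fold above control (2.28). Nes, the intermediate filament nestin, had 87.7 FPKM in knockdown and 150.2 in control (-0.77).

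Glial lineage genes lay mostly below control and within 2-fold. None of 10 astrocyte markers was past 2-fold (median log2 ratio -0.31), with S100b at 485 FPKM in knockdown and 521 in control. Oligodendrocyte lineage transcripts were abundant in both groups: Sox10 had 380.4 FPKM in knockdown and 455 in control, and Mbp had 97.5 FPKM in knockdown and 113 in control. Of 13 such genes, Olig1, a basic helix-loop-helix factor, was at least 2-fold higher (knockdown 25.1 FPKM, control 9.22 FPKM, 1.35) and Enpp2, which makes lysophosphatidic acid, at least 2-fold lower (knockdown 108 FPKM, control 314 FPKM, -1.53).

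BMP4 is what makes these cells quiescent, and members of its pathway lay on both sides of control. Id3, an inhibitor of differentiation and a direct BMP target, had 1075 FPKM in knockdown and 220.4 in control (log2 ratio 2.28). Smad6, an inhibitory Smad, had 45.2 FPKM in knockdown and 9.91 in control (2.08), and Nog, the secreted BMP antagonist noggin, had 144 FPKM in knockdown and 45.8 in control (1.63). Id1 (knockdown 426 FPKM, control 259.7 FPKM, 0.71) and Smad7 (knockdown 9.10 FPKM, control 5.39 FPKM, 0.66) were higher within 2-fold, and Id2 was not (knockdown 475 FPKM, control 652 FPKM, -0.46). The type II receptor gene Bmpr2 had 101 FPKM in knockdown and 226 in control (-1.15), and Smad9 had 8.96 FPKM in knockdown and 19.1 in control (-1.01). Over 40 genes, 6 (15%) were higher and 3 (7.5%) lower, against 14.3% and 3.07% of all genes. The list had a median of -0.42 (-0.15 when centred on locus length), and its summed FPKM was 3631 in knockdown and 2656 in control.

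The other signalling lists each held genes past 2-fold in both directions. Of 16 Notch pathway genes, Lfng, which modifies Notch receptors, was higher (knockdown 15.7 FPKM, control 2.89 FPKM, log2 ratio 2.10) and Rbpj, the pathway's DNA binding factor, lower (knockdown 31.0 FPKM, control 65.6 FPKM, -1.06). Of 30 Wnt pathway genes, with a median of -0.13 (0.01 when centred on locus length), 1 (3.33%) was higher against 14.3% of all genes and 5 (16.7%) lower against 3.07%, and when centred on locus length 0 were higher and 2 lower. The lower ones included the mediators Lef1 (knockdown 143 FPKM, control 313 FPKM, -1.13) and Apc (knockdown 31.3 FPKM, control 69.7 FPKM, -1.13) and the receptor Ror1 (knockdown 4.97 FPKM, control 13.5 FPKM, -1.28). In the FGF and ERK feedback list of 43, 6 were higher and 4 (9.30%) lower. The immediate early genes Ier2 (knockdown 45.7 FPKM, control 11.9 FPKM, 1.86) and Junb (knockdown 164 FPKM, control 51.1 FPKM, 1.67) and the ETS factor Etv4 (knockdown 46.2 FPKM, control 13.5 FPKM, 1.70) were higher, while Egr1 (knockdown 11.5 FPKM, control 25.5 FPKM, -1.09) and Fgf2 (knockdown 4.54 FPKM, control 13.4 FPKM, -1.38) were lower. Of 8 sonic hedgehog genes, Disp2 was higher (knockdown 7.41 FPKM, control 2.64 FPKM, 1.21) and Gli3 lower.

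Inhibitors of the cell cycle lay on both sides of control. Among 33 genes for inhibitors of cyclin-dependent kinases and for quiescence, 6 were at least 2-fold higher and 1 lower, and the median log2 ratio was -0.37. Cdkn1a, which encodes the p21 inhibitor, had 32.1 FPKM in knockdown and 6.61 in control (2.12), Cdkn2a had 379 FPKM in knockdown and 126 in control (1.58), and Cdkn2c had 29.2 FPKM in knockdown and 13.8 in control (1.03). Klf2, a factor tied to quiescence in several cell types, had 21.4 FPKM in knockdown and 2.59 in control (2.64), and Gadd45b had 151 FPKM in knockdown and 45.8 in control (1.70). Below control were Cdkn1b, which encodes p27 (knockdown 196 FPKM, control 365 FPKM, -0.89), and the pocket protein genes Rb1 (knockdown 10.9 FPKM, control 20.4 FPKM, -0.85), and Rbl2 (knockdown 15.3 FPKM, control 31.7 FPKM) just past 2-fold.

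Single genes of DNA replication and of mitosis lay far above control. Of 61 replication and S phase genes, 16 (26.2%) were at least 2-fold higher as deposited, against 14.3% of all genes, and 1 lower. With the same sum 6 of the 61 were higher and 8 lower, where 7.80% of all genes were higher and 20.7% lower, and centred on locus length 9 were higher, where 11.6% of all genes were. The list had a median log2 ratio of 0.20 that turned to -0.30 with the same sum and was 0.07 when centred on locus length. Rrm2, the ribonucleotide reductase subunit that limits supply of nucleotides, had 19.7 FPKM in knockdown and 0.0369 in control (4.32). Dut, which removes dUTP, had 50.3 FPKM in knockdown and 3.33 in control (3.57), Tipin, a replication fork protein, had 37.0 FPKM in knockdown and 3.28 in control (3.15), and Gins2 of the replicative helicase had 14.6 FPKM in knockdown and 1.27 in control (2.78). The other reductase subunit, Rrm1, had 156 FPKM in knockdown and 354 in control (-1.18). The helicase genes Mcm2 to Mcm7 lay within 2-fold, with ratios of -0.21 (Mcm4) to 0.96 (Mcm5). Of 64 mitosis and kinetochore genes, 5 were higher and 1 lower, with a median of -0.05. Ccnb2, a mitotic cyclin, had 23.6 FPKM in knockdown and 0.458 in control (4.07) and Cdc20, an activator of the anaphase complex, had 90.5 FPKM in knockdown and 28.5 in control (1.63), while Ccna2 had 29.8 FPKM in knockdown and 59.8 in control (-0.98) and Cenpf had 7.60 FPKM in knockdown and 18.7 in control (-1.20).

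The study chose 7 genes of ribosomes and of the cell cycle from these samples for follow-up, so their direction is no independent evidence. They came from the targets it called in iQNP and not in TAP, so TAP values were part of the choice. Their gap between iQNP and TAP is thus no independent evidence either. As deposited, all 7 were at least 2-fold higher in iQNP cells, among them Tipin, Npm1 (knockdown 526 FPKM, control 137 FPKM), Cdc20, Rps6 (knockdown 4843 FPKM, control 1668 FPKM), Mms22l (knockdown 16.5 FPKM, control 6.90 FPKM) and Rpl4 (knockdown 897 FPKM, control 409.5 FPKM). With the same sum 4 of the 7 were past 2-fold, and 5 were with ribosomal protein genes out of the sums or when centred on locus length. In TAP cells, where 15.4% of genes were at least 2-fold higher and 6.7% at least 2-fold lower, 1 of the 7 was past 2-fold, Tipin (knockdown 67.6 FPKM, control 6.71 FPKM, log2 ratio 3.15). Other TAP ratios were 0.98 for Cdc20, 0.94 for Npm1, 0.58 for Rpl4, 0.21 for Rps6 and -0.08 for Mms22l. Whether the ratios differ between the growth conditions cannot be tested with 1 value per group.

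Histone genes lay below control, with 1 large exception. Of 21 with status OK, 6 (28.6%) were at least 2-fold lower and 3 higher, and the median log2 ratio was -0.55. Lower were Hist2h4 (knockdown 2382 FPKM, control 7242 FPKM, -1.60), Hist1h1d (knockdown 5277 FPKM, control 13158 FPKM, -1.32) and Hist1h2bl (knockdown 434 FPKM, control 1001 FPKM, -1.20), all genes of the replication-dependent class. The locus entries of Hist2h4 and Hist1h1d span only 0.396 and 0.105 kb. Hist1h2an, with 307 FPKM in knockdown and 849 in control (-1.47), shares 1 locus entry of 323 kb with other genes (3 in all). The variant H2afz, a histone placed at promoters outside S phase, had 714 FPKM in knockdown and 45.6 in control (3.94). Polycomb, Trithorax and DNA methylation genes also lay below control as a group (54 genes, 3 higher and 5 lower, median -0.59, and -0.32 when centred on locus length). Among these the DNA methyltransferase Dnmt3a (knockdown 12.1 FPKM, control 26.8 FPKM, -1.08) and the oxidase Tet1 (knockdown 3.28 FPKM, control 8.02 FPKM, -1.08) were lower, and Mbd3 of the NuRD complex was higher (knockdown 166 FPKM, control 45.4 FPKM, 1.84).

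Cytosolic ribosomal protein genes had the highest median of the 53 lists. Of 80, 71 (88.8%) were at least 2-fold higher and 1 lower, with a median log2 ratio of 5.62, and they held 26.8% of the summed FPKM in knockdown and 7.35% in control. Rpl37 (5589.9 FPKM in knockdown), Rps21 (5489 FPKM) and Rps28 (2974 FPKM) were listed at 0 in control. Rps24 had 5575 FPKM in knockdown and 3.82 in control (10.17), Rps27 had 11350 FPKM in knockdown and 25.3 in control (8.75), and Rpl8 had 1834 FPKM in knockdown and 3.97 in control (8.53). Other members of the same particle were near equal, such as Rpl23 (knockdown 9295 FPKM, control 9549 FPKM, -0.04) and Rps3a (knockdown 4297 FPKM, control 3669.5 FPKM, 0.23), and Rpl37a was lower (knockdown 2051 FPKM, control 4848 FPKM, -1.24). Named pseudogenes exist for 79 of the 80 genes, against 13.7% of all genes, and the median locus of the 80 spans 2.88 kb. The part of either in these values, and in the control values near 0, was not tested.

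Ribosome assembly factors differed less. Of 103 ribosome biogenesis and RNA polymerase I genes, 21 (20.4%) were at least 2-fold higher and 0 lower, with a median log2 ratio of 0.15 that turned to -0.36 with the same sum. Nhp2l1 and Nhp2, small RNA binding proteins of nucleolar particles, had 214 and 180 FPKM in knockdown and 14.3 and 20.1 FPKM in control (3.82 and 3.10). Exosc4 of the RNA exosome had 49.7 FPKM in knockdown and 8.34 in control (2.44), and the methyltransferase Fbl had 156 FPKM in knockdown and 46.7 in control (1.72). Ncl, which encodes nucleolin, had 403 FPKM in knockdown and 657 in control (-0.70), and Polr1a, the large subunit of RNA polymerase I, had 13.8 FPKM in knockdown and 18.7 in control (-0.41). Of the 103 genes, 31 have named pseudogenes, and 16 of the other 72 were at least 2-fold higher.

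Nuclear genes of the respiratory chain were higher as a group. Of 70 oxidative phosphorylation genes, 41 (58.6%) were at least 2-fold higher and 0 lower, with a median log2 ratio of 1.38 (0.86 with the same sum and 1.09 when centred on locus length). Cox7a2 of complex IV had 2190 FPKM in knockdown and 11.6 in control (7.44), cytochrome c (Cycs) had 443 FPKM in knockdown and 24.8 in control (4.11), Uqcrb of complex III had 195 FPKM in knockdown and 11.7 in control (3.95), and Ndufs5 of complex I had 278 FPKM in knockdown and 18.8 in control (3.82). Cox6c was the most abundant member below control, with 7164 FPKM in knockdown and 11147 in control (-0.64). Without the 38 genes that have named pseudogenes, 16 of 32 were at least 2-fold higher, with a median of 1.04. In the import machinery 17 of 36 were higher, led by Timm23 (knockdown 147 FPKM, control 3.12 FPKM, 5.17) and Timm13 (knockdown 277 FPKM, control 32.9 FPKM, 3.03), and 13 of the 22 without a named pseudogene. Genes of the tricarboxylic acid cycle and mitochondrial regulators, taken as 1 list, were not higher as a group (4 of 40, median -0.05). Ppargc1a, a coactivator of mitochondrial genes, was lower (log2 ratio -1.61), and the nuclear receptor Esrra was higher (knockdown 30.5 FPKM, control 8.01 FPKM, 1.80).

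The glycolysis genes past 2-fold all have named pseudogenes. Of 21, 7 were at least 2-fold higher and 0 lower, with a median log2 ratio of 0.40 that turned to -0.12 with the same sum and to -0.01 over the 13 genes without a named pseudogene, of which 0 were past 2-fold. Pkm2, the pyruvate kinase gene, had 973 FPKM in knockdown and 3.02 in control (7.92), Eno1 had 942 FPKM in knockdown and 110.5 in control (3.08), and Ldha had 1713 FPKM in knockdown and 245 in control (2.80). Gapdh, often used as a constant reference, had 3891 FPKM in knockdown and 532 in control (2.87), and 81 named pseudogenes. The part of these copies in the values was not tested.

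**Figure D3:**
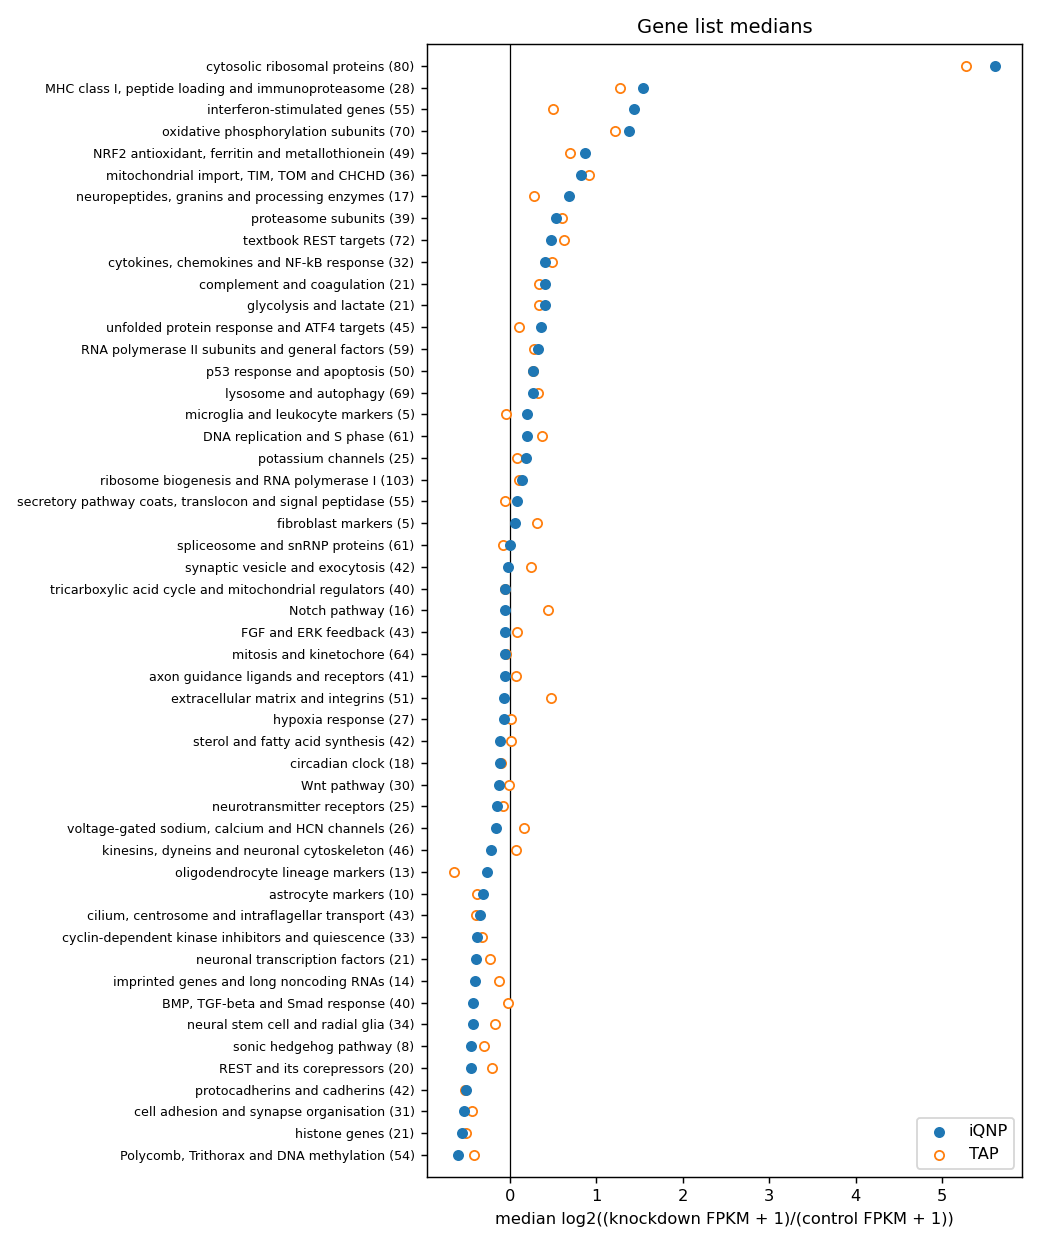
Median log2 ratio of knockdown over control for each gene list with at least 5 genes in iQNP cells (filled) and for the same lists in TAP cells (open), with the number of iQNP genes in parentheses. Cytosolic ribosomal proteins (5.62 in iQNP and 5.28 in TAP) stand far to the right, and interferon-stimulated genes differ most between the growth conditions among lists of at least 20 genes (1.44 in iQNP and 0.50 in TAP). With both iQNP groups scaled to the same sum of FPKM every median shifts to the left, and those of 6 lists with medians of 0.25 or more turn negative.

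Interferon-stimulated genes were higher in the knockdown cells. Of 55, 33 (60%) were at least 2-fold higher and 0 lower, with a median log2 ratio of 1.44, and with the same sum 27 were still higher (median 0.92). Bst2, which tethers virus particles, had 247 FPKM in knockdown and 9.13 in control (4.61). Irf7, a master factor of the response, had 167 FPKM in knockdown and 15.8 in control (3.32), and Oas1a, a sensor of double-stranded RNA, had 347 FPKM in knockdown and 38.3 in control (3.15). Ifi27l2b had 1425 FPKM in knockdown and 93.4 in control (3.92), and Isg15, a ubiquitin-like modifier, had 2709.6 FPKM in knockdown and 629 in control (2.10). The upstream sensors Ddx58 (knockdown 136 FPKM, control 124 FPKM, 0.14) and Ifih1 (knockdown 30.3 FPKM, control 28.1 FPKM, 0.11) were near equal, while Stat2 had 196 FPKM in knockdown and 71.6 in control (1.44). Only 4 of the 55 have a named pseudogene, and 31 of the other 51 were at least 2-fold higher.

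Antigen presentation genes were also higher. Of 28 genes for MHC class I, peptide loading and the immunoproteasome, 22 (78.6%) were at least 2-fold higher and 0 lower (median log2 ratio 1.54, and 1.12 with the same sum). Psme2, a proteasome activator subunit, had 423 FPKM in knockdown and 3.40 in control (6.59), and has 3 named pseudogenes. The peptide transporter Tap1 had 138 FPKM in knockdown and 17.9 in control (2.88), its partner Tap2 had 38.2 FPKM in knockdown and 12.8 in control (1.51), and the immunoproteasome subunits Psmb9 and Psmb10 had 275 and 307 FPKM in knockdown and 57.1 and 57.8 FPKM in control (2.25 and 2.39). The class I genes RT1-A2 (knockdown 40.4 FPKM, control 1.42 FPKM, 4.10) and RT1-CE5 (knockdown 106 FPKM, control 7.66 FPKM, 3.63) are close copies of each other, so reads can be split among them. B2m, the shared light chain, had 3364 FPKM in knockdown and 2427 in control (0.47).

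Of 32 cytokine, chemokine and NF-kB response genes 8 were at least 2-fold higher and 0 lower. These included the chemokines Ccl7 (knockdown 17.7 FPKM, control 0.494 FPKM, log2 ratio 3.65), Cxcl10 (log2 ratio 3.08) and Ccl2 (knockdown 126 FPKM, control 18.8 FPKM, 2.68). Ifnb1, the beta interferon gene itself, had 1.67 FPKM in knockdown and was listed at 0 in control. NF-kB's inhibitor Nfkbia, its usual feedback target, was near equal (knockdown 72.9 FPKM, control 74.3 FPKM, -0.03). Complement and coagulation genes had 5 of 21 higher, with Cfb at 6.06 FPKM in knockdown and 0.456 in control (2.28), and a median of 0.41 that turned to -0.09 with the same sum. Of 22 listed microglia and leukocyte genes, 5 had status OK and 1 of these was at least 2-fold higher, Ctss, a lysosomal protease that many other cells make. The defining markers were at or near 0 in both groups: 6 microglia and leukocyte markers summed to 2.92 FPKM in knockdown and 3.93 in control, nearly all of it Cd68 (knockdown 2.64 FPKM, control 3.84 FPKM), with Aif1, Csf1r and Cx3cr1 at 0.0605, 0.013 and 0.157 FPKM in knockdown and each listed at 0 in control.

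Stress lists were higher in part. Of 49 NRF2, ferritin and metallothionein genes, 22 were at least 2-fold higher and 0 lower (median log2 ratio 0.87), with Ftl, the ferritin light chain, at 1315 FPKM in knockdown and 17.9 in control (6.12), Prdx1 at 694 FPKM in knockdown and 24.3 in control (4.78) and Hmox1, heme oxygenase, at 222 FPKM in knockdown and 37.8 in control (2.52). The NRF2 gene Nfe2l2 was near equal (knockdown 76.9 FPKM, control 73.1 FPKM, 0.07), and without genes that have named pseudogenes 11 of 32 were higher with a median of 0.34. Of 50 p53 and apoptosis genes, 14 were higher and 1 lower, with a median of 0.28 that turned to -0.15 with the same sum. Bax, a pore former of mitochondrial apoptosis, had 272 FPKM in knockdown and 33.7 in control (2.98), and Bcl2, which opposes it, had 9.61 FPKM in knockdown and 29.6 in control (-1.53), over a locus of 174 kb. Of 45 unfolded protein response and ATF4 targets, 11 were higher and 0 lower, with a median of 0.37 that turned to -0.12 with the same sum. Trib3 (knockdown 44.9 FPKM, control 8.98 FPKM, 2.20) and Mthfd2 (knockdown 71.8 FPKM, control 17.3 FPKM, 1.99) were higher, whereas the chaperone Hspa5 (knockdown 409 FPKM, control 397 FPKM) and Xbp1 (knockdown 127 FPKM, control 126 FPKM) were near equal. Hypoxia genes had 7 of 27 higher and Ak4 lower (knockdown 7.22 FPKM, control 26.3 FPKM, -1.73), with Ddit4 at 72.7 FPKM in knockdown and 6.29 in control (3.34) and Vegfa near equal at 43.6 FPKM in knockdown and 45.6 in control.

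Protein turnover and RNA machines each held members far above control. Of 39 proteasome subunits 12 (30.8%) were at least 2-fold higher, against 14.3% of all genes, and 35 lay above a ratio of 0 (median log2 ratio 0.53, and 0.01 with the same sum). Psma3l had 208 FPKM in knockdown and was listed at 0 in control, and Psmb6 had a log2 ratio of 5.41. Of 61 spliceosome genes 15 (24.6%) were higher and 0 lower with a median of 0.01 that turned to -0.49 with the same sum, led by Snrpg (knockdown 1042 FPKM, control 26.8 FPKM, 5.23). Psma3l, Psmb6 and Snrpg have named pseudogenes. Among genes without one, 4 of 22 proteasome genes (median 0.41) and 6 of 36 spliceosome genes (median -0.22) were higher, against 12.2% of all such genes. RNA polymerase II and general factor genes had 12 of 59 (20.3%) higher and 4 (6.78%) lower, with a median of 0.33 that turned to -0.19 with the same sum. Gtf2a2, a subunit of TFIIA, had 107 FPKM in knockdown and 2.21 in control (5.07), while its partner Gtf2a1 had 45.5 FPKM in knockdown and 95.9 in control (-1.06), and Med20 and Med14 of Mediator had 20.5 and 13.4 FPKM in knockdown and 0.120 and 36.6 FPKM in control (4.26 and -1.38). Of 69 lysosome and autophagy genes 12 (17.4%) were higher and 0 lower, with a median of 0.27 that turned to -0.25 with the same sum. Among them Map1lc3a, which coats autophagosomes, had 283 FPKM in knockdown and 39.0 in control (2.83). Secretory pathway genes had 9 of 55 (16.4%) higher and 1 lower, with a median of 0.09 that turned to -0.43 with the same sum. The shares of lysosome and secretory genes that were higher lay near the 14.3% of all genes.

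Structural lists with long loci lay below control. Of 42 protocadherin and cadherin genes 0 were at least 2-fold higher and 5 (11.9%) lower, with a median log2 ratio of -0.50 (-0.28 when centred on locus length) and a median locus of 185 kb. Fat1, a giant cadherin, had 29.5 FPKM in knockdown and 69.7 in control (-1.22), and Pcdh17 had 50.9 FPKM in knockdown and 121 in control (-1.23). Clustered protocadherins share their locus entry, as does Pcdhgc5 (knockdown 54.0 FPKM, control 139 FPKM, -1.35). Of 43 cilium genes 0 were higher and 1 lower, Cep290 (knockdown 6.32 FPKM, control 14.1 FPKM, -1.05), with a median of -0.34. Matrix and integrin genes had 5 of 51 higher and 3 lower, with a median of -0.06 that was 0.21 when centred on locus length. Lama1, a laminin chain of basement membranes, had 8.46 FPKM in knockdown and 0.0134 in control (3.22) over a locus of 126 kb, Timp1, an inhibitor of matrix proteases, had 500.3 FPKM in knockdown and 183 in control (1.45), and Itgb8 had 3.56 FPKM in knockdown and 9.30 in control (-1.18). Sterol and fatty acid genes had 4 of 42 higher and 1 lower, and the clock list had 0 of 18 higher and Clock itself lower (knockdown 27.7 FPKM, control 61.7 FPKM, -1.13).

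Where both groups reached 3 FPKM, the lowest ratio was that of fut10, a fucosyltransferase gene, with 8.66 FPKM in knockdown and 110 in control (log2 ratio -3.52), on chromosome 16 at 64849369 to 64855390. Ly96, the coreceptor of TLR4, was among the most abundant lower genes, with 1142 FPKM in knockdown and 3990.2 in control (-1.80). Ppp1r9a, a spine protein that binds actin, had 13.2 FPKM in knockdown and 39.4 in control (-1.51) over a locus of 272 kb. Of imprinted and noncoding genes, Snrpn was higher (knockdown 84.1 FPKM, control 8.55 FPKM, 3.16), as was Gas5, which hosts small nucleolar RNAs (knockdown 413 FPKM, control 68.6 FPKM, 2.57). Nnat, an imprinted proteolipid gene, had 2033 FPKM in knockdown and 899 in control (1.18), and Plagl1, an imprinted zinc finger gene, was lower with 26.1 FPKM in knockdown and 56.0 in control (-1.07).

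The ratio of knockdown to control went with the length of the gene's locus in the file. In loci under 2 kb (378 genes) 35.2% of genes were at least 2-fold higher, and in loci of 2 to 5 kb (1000 genes) 34.1%. That share was 25.2% at 5 to 10 kb, 14.5% at 10 to 25 kb, 6.48% at 25 to 50 kb, 3.53% at 50 to 100 kb and 2.72% over 100 kb (1178 genes). The share at least 2-fold lower was 5.03% under 2 kb, 0.977% at 5 to 10 kb and 9.42% over 100 kb. The median log2 ratio was 0.57 at 2 to 5 kb and -0.55 over 100 kb. Genes at least 2-fold higher had a median locus of 8.08 kb and those lower 72.7 kb, against 21.5 kb over all. Without genes that have a named pseudogene the medians of the shortest and longest loci were 0.45 and -0.56, and in TAP cells, from other libraries, they were 0.39 and -0.40. Whether transcript length, RNA size or RNA integrity has a part in this was not tested. The lists differ in locus length, so their medians move when each ratio is centred on genes of like length. Besides those given above, the median became -0.08 for REST and its corepressors, -0.05 for the cytoskeleton, -0.04 for neurotransmitter receptors and -0.06 for sonic hedgehog genes, all nearer to 0 than as deposited. Also nearer to 0 were those of NRF2 targets (0.44), mitochondrial import (0.46), the unfolded protein response (0.10), ribosome biogenesis (0.01), cytokines (0.17), complement (0.17), lysosome (0.14), proteasome (0.35) and RNA polymerase II genes (0.17). Farther below 0 were those of Notch (-0.22), FGF and ERK (-0.23) and spliceosome genes (-0.17, which had been 0.01). By level, genes with a mean over 100 FPKM were at least 2-fold higher most often (28.1%), and those at 3 to 10 FPKM least often (10.8%).

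**Figure D4:**
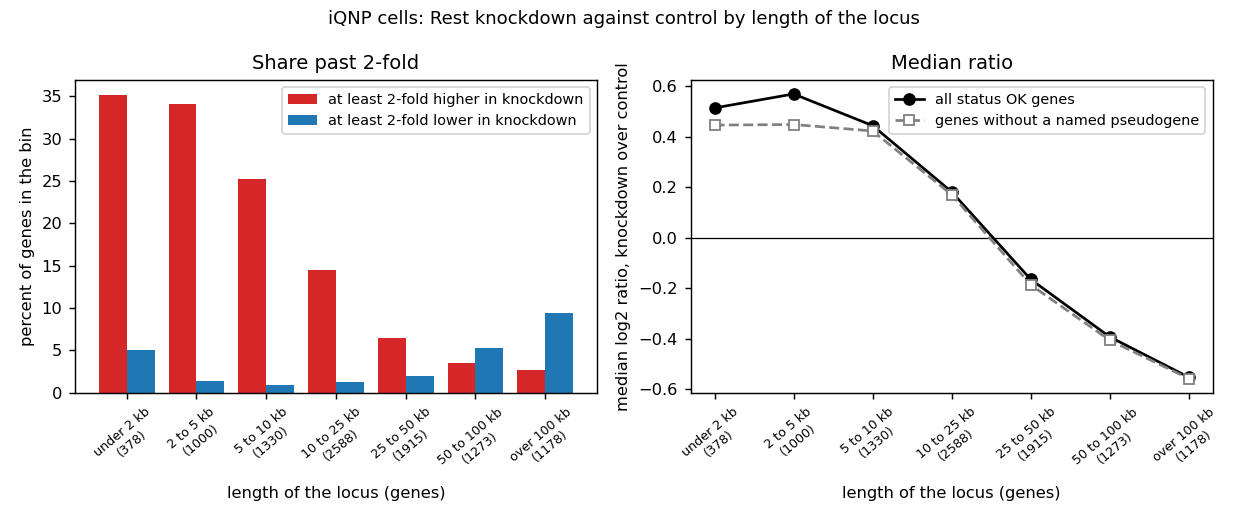
Left, percent of iQNP genes at least 2-fold higher (red) and lower (blue) in the knockdown cells in 7 bins of locus length, with the number of genes in parentheses. Right, median log2 ratio of knockdown over control in the same bins for all genes (filled circles) and for genes without a named pseudogene (open squares), which declines from loci of 2 to 5 kb (0.57) to loci over 100 kb (-0.55).

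Most of what was higher in iQNP cells was also higher in TAP cells. The tables were normalised separately, so ratios and not levels are set side by side, and the comparisons share no libraries. Of 9252 genes with status OK in both, 1087 were at least 2-fold higher in both, which is 81.1% of the 1340 higher in iQNP and 75.6% of the 1437 higher in TAP. Lower in both were 139 genes, 49.6% of 280 in iQNP and 22.6% of 614 in TAP. Across genes, which are not independent replicates, the log2 ratios had a Pearson r of 0.93 and a Spearman rho of 0.86 (0.92 and 0.85 when centred on locus length), and 85.3% had the same sign. Past 2-fold in opposite directions were 2 genes. Snhg4, a host of small nucleolar RNAs, had a log2 ratio of -1.73 in iQNP and 2.06 in TAP, over a locus entry of only 0.237 kb. RT1-EC2, a class I gene in a locus entry with 4 genes, had 3.33 FPKM in iQNP knockdown and 0 in iQNP control, against 1.70 FPKM in knockdown and 4.96 in control in TAP (-1.14).

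For REST targets the medians lay close. With status OK in both tables were 61 targets, of which 19 were at least 2-fold higher in both and 0 lower in both. Of all 9252 genes with status OK in both, 1087 were higher in both and 139 lower in both. The list's median log2 ratio was 0.48 over 72 genes in iQNP and 0.63 over 66 genes in TAP. Some of the 19, such as Stmn3 and Snap25, are targets that the study called in both conditions partly from these libraries. Vgf (4.94 in iQNP and 4.25 in TAP), Stmn3 (2.92 and 2.54) and Snap25 (2.10 and 2.29) were alike in size, while Gria2 had -0.88 in iQNP and 1.17 in TAP, and Sez6 had 0.55 and 2.26. Cytosolic ribosomal proteins (71 of 80 higher in iQNP and 68 of 80 in TAP) and respiratory chain genes (41 of 70 and 42 of 70) were also alike.

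Interferon genes had higher ratios in iQNP cells than in TAP cells. Of 55, 33 were at least 2-fold higher in iQNP and 16 in TAP, all 16 of them among the 33, with medians of 1.44 and 0.50. Ifit3 had a log2 ratio of 3.48 in iQNP and 0.82 in TAP, Isg15 had 2.10 and -0.50, and Mx1, an antiviral GTPase, had 2.36 and -0.19. Within the TAP table Isg15 stood at 1818 FPKM in knockdown and 2566 in control, and Mx1 at 422 FPKM in knockdown and 480.1 in control. In 163 genes the iQNP ratio exceeded that of TAP by at least 1, and of the 25 with the widest gaps, among genes of at least 10 FPKM in an iQNP group, 12 are on the interferon list. In 95 genes the TAP ratio exceeded that of iQNP by at least 1, and with at least 10 FPKM in an iQNP group the widest gaps after Snhg4 were those of S100a6 (0.69 in iQNP and 3.23 in TAP), Nrep (-0.25 and 2.20), Npvf, a neuropeptide gene (2.80 and 5.24), and Anxa1 (1.18 and 3.25). Matrix genes had a median of -0.06 over 51 genes in iQNP and 0.48 over 43 genes in TAP. No replicate value exists to test any of these gaps.

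**Figure D5:**
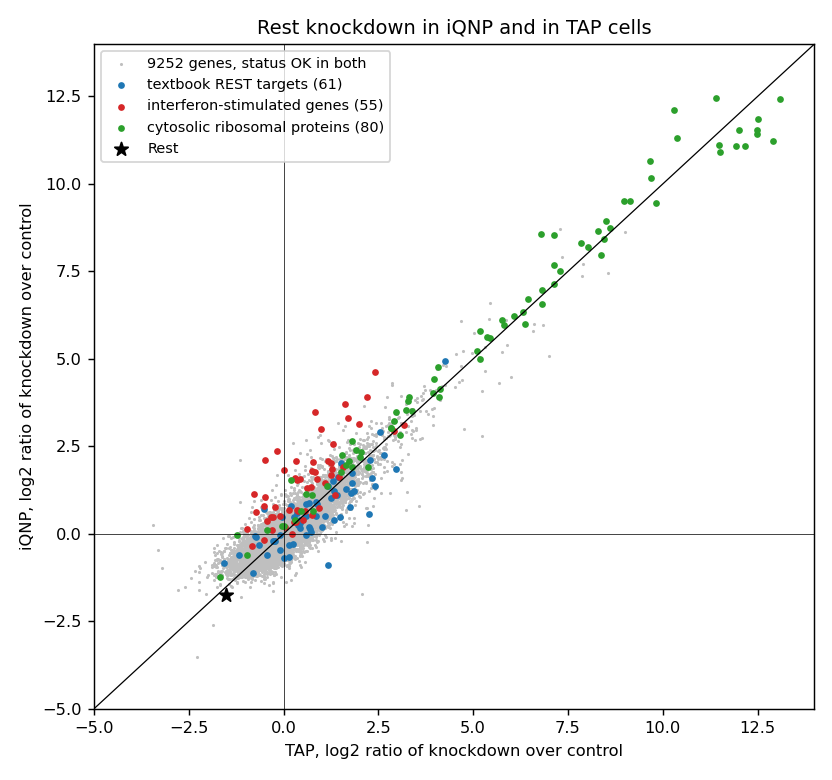
Log2 ratio of knockdown over control in iQNP cells (vertical) against TAP cells (horizontal) for 9252 genes with status OK in both tables, with the line of equality. Most genes follow the diagonal (Pearson r of 0.93 across genes), as do textbook REST targets (blue) and cytosolic ribosomal proteins (green), while interferon-stimulated genes (red) lie mostly above it, with medians of 1.44 in iQNP and 0.50 in TAP.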

How the data were processed

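RNA of HCN cells was depleted of ribosomal RNA and sequenced as paired-end libraries, 12 in the series, of which 6 were iQNP libraries. The authors aligned the reads to rn4 with TopHat2 and deposited Cuffdiff tables with 1 FPKM value per gene and group, pooled over the libraries of the group. Tool versions and the nature of the revision named in the tables' marking are not given in the sources used here, nor is it clear whether the sequenced cells were sorted. The libraries are only numbered, and nothing says that they came from separate cultures. Columns with the authors' own comparisons (fold changes, statistics, p-values and q-values) were not used, and 0 columns of values per library were left out. Groups came from the labels.

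Log2 ratios were computed with a pseudocount of 1 FPKM over all genes with status OK, using Python 3.11.15, numpy 2.4.6, pandas 2.3.3 and matplotlib 3.10.9, and the scripts were tested on simulated data. Because each group has 1 value, no test was run, and the depth per library is unknown. Genes were assigned to 53 gene lists by symbol and then by RefSeq synonym, and 98.3% of symbols were found in RefSeq. Named pseudogenes were counted from RefSeq symbols. Genes were named by rule: Rest, the 12 highest and 12 lowest ratios where each group reached 3 FPKM, the 8 highest values listed at 0 in the other group, up to 4 genes per list past 2-fold, the genes most alike or opposite in TAP, and the study's 7 follow-up genes, some left out for length and some not reported here. Other genes were chosen after their values were seen. The members and lists were chosen with earlier results of these data known.

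Alternatives were another pseudocount, a minimum level, 2 scalings by summed FPKM, centring on the median, all genes whatever the status, longer loci only, other folds and other mismatch limits. Centring on the locus length bin and leaving out genes with named pseudogenes were added after seeing the data, as were 3 settings for the trend with locus length.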

Additional observations from a re-analysis of the deposited data

Results flagged for a closer look

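Some genes without status OK, which no comparison above uses, had values in the knockdown cells while they were listed at 0 in the control cells. Mir199a, a microRNA gene on chromosome 13 (rn4, 77688378 to 78165182), had 182.6 FPKM in knockdown. Mir3561, on chromosome 7 at 22452262 to 22452371, had 34.0 FPKM. Hist1h2ail, a histone gene on chromosome 17 at 48448925 to 48771578, had 28.0 FPKM, in the locus entry that also holds Hist1h2an. Mir3074, on chromosome 17 at 7350949 to 7351066, had 27.5 FPKM. Each is a single pooled value with no replicate.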

How the results depend on the processing

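No paired analysis was possible because each group has 1 pooled value, and for the same reason leaving out each library and the replicate block were not run. Setting the FPKM sums of knockdown and control equal changed most. It gave 754 genes higher and 2004 lower, a median log2 ratio of -0.46, 8 lists with a median of at least 0.25 (18 as deposited), 32 of at most -0.25 (14 as deposited), 519 genes higher and 1473 lower in both growth conditions. It also turned the medians of glycolysis (-0.12), unfolded protein response (-0.12), p53 (-0.15), complement (-0.095), lysosome (-0.25) and RNA polymerase II genes (-0.19). With ribosomal protein genes out of the sums, 723 genes were lower, and 376 in both conditions. With a pseudocount of 0.1 FPKM, 479 genes were lower, and 216 in both. A fold of 1.5 gave 2418 higher and 1753 lower, and a fold of 4 gave 392 and 4. Loci of at least 5 kb alone held 912 higher genes, and 710 higher in both. With all genes whatever the status, 7 lists lay at -0.25 or below, rho between the conditions was 0.72, and the median over 100 kb minus that under 2 kb was -0.23 (-1.07 as reported). Centring on locus length left 9 lists at -0.25 or below and 235 genes lower in both. Glycolysis genes without named pseudogenes had a median of -0.0099. The RE1 blocks lay in 1 higher gene without a mismatch (0.103% of matched higher genes, against 0.0593% of all matched genes). With at most 1 mismatch they lay in 5 (0.514% against 0.282%), and with at most 2 in 16 (1.64% against 1.99%). The causes were not tested, apart from the arithmetic of each setting. Of the 197 genes picked by rule, 164 had a value at the minimum of 1 FPKM, 122 in loci of at least 5 kb and 136 without named pseudogenes. No gene with a value changed direction, but none could. Each was picked past 2-fold, and the scalings shift the log2 ratio of FPKM by only -0.53 and -0.19. The locus length bins have medians of -0.55 to 0.57, and another pseudocount cannot turn a sign.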

Other observations

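Beyond the list of textbook targets, several genes with both RE1 blocks at 1 mismatch in their promoter window lay above control, with no test. Nudt16l1 had 47.1 FPKM in knockdown and 3.95 in control, and Pemt, which makes phosphatidylcholine in the endoplasmic reticulum, had 109 FPKM in knockdown and 54.3 in control. These genes were picked after their values were seen, and the 15 genes with 1 mismatch had a median log2 ratio of 0.00.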
